A study of Mus musculus with 12 samples.

Results

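Kupffer cells, the resident macrophages of the liver, share the hepatic sinusoids with liver sinusoidal endothelial cells (LSECs), and their transcripts can be read in LSEC preparations. A list of 35 Kupffer cell and macrophage genes was followed, array by array, in LSECs isolated from mice of 4 genotypes. The genes were taken from the list by name, each through the table row with the highest mean for its symbol, and 34 of the 35 were measured among 24011 named genes. Lyz2 was not analysed here. The series holds 12 arrays, 3 of each genotype, and addresses how LSECs differ when the class H scavenger receptors stabilin-1 (Stab1) and stabilin-2 (Stab2) are missing. The WT group carries both genes, the Stab1KO group lacks Stab1, the Stab2KO group lacks Stab2, and the DKO group, labelled Stabilin-double-deficient, lacks both. All mice were of strain C57BL/6J and 3 to 4 months old, each array held RNA pooled from 3 mice, and the cells were drawn from perfused livers with magnetic beads against CD146. The method of deletion, the cells in which it acts and the kinship of WT and deficient mice were not stated in the labels. Each p-value therefore measures the spread between pools, and the small number of arrays limits the precision.

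Kupffer cells settle in the liver before birth, renew themselves there under the growth factor receptor CSF1R, and take up particles, aged red cells and complement-coated microbes from portal blood. Their usual markers are the receptors Clec4f, Vsig4, Timd4, Marco, Cd163 and Folr2, the secreted protein Cd5l and the C1q chains of the complement system. Stab1 is itself known in some tissue macrophages as well as in LSECs. Several genes of the list, among them Mertk, Slc40a1 and Fcer1g, are not restricted to macrophages.

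All values are log2 expression as deposited, and a difference of 1 is a doubling. The median over all genes and arrays was 5.12, and 32 of the 34 measured genes had a mean above it. No detection calls were used here, so values near the low end hold an unknown share of background. Stab1 averaged 12.54 in WT and 12.53 in Stab2KO but 5.31 and 5.23 in Stab1KO and DKO, while the Stab2 means of WT (13.05) and Stab1KO (13.004) fell to 6.81 and 6.65 in Stab2KO and DKO. Of 16 LSEC markers, no other was called in a comparison with WT, although 15 of the 16 had a lower mean in DKO (median difference -0.19) and Wnt2 was called lower in DKO than in each single knockout. Cdh5, the junction protein of endothelium, lay between 13.31 and 13.50 in all 12 arrays. The pairwise correlation among 11 arrays was at least 0.987 over all genes, and between 0.956 and 0.968 for each pair that held DKO replicate 3. The mean of 11 neutrophil markers was 12.39 in DKO replicate 3 and between 5.46 and 6.87 in the other 11 arrays. In these bulk samples a smaller number of macrophages and less macrophage RNA per cell cannot be told apart. A gene was called where the limma test gave an adjusted p under 0.05 after Benjamini-Hochberg adjustment over the 24011 genes. Counts of the 34 genes with an unadjusted p under 0.05 in limma are given too. The share of all genes at that looser threshold is not given, so these counts are not read as results about the list. Percentages of all genes called refer to the adjusted p only.

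The macrophage genes varied widely between pools of 1 genotype, and they did so together. The range over the 3 WT arrays had a median of 1.83 over the 34 genes, against 0.192 over all genes. WT replicate 2 was the highest WT array for 32 of the 34 genes and WT replicate 1 the lowest for 30 of the 34, where these arrays held those places for 29.9% and 30.7% of all genes. Stab1KO replicate 3 was the highest of its group for 29 of 34 genes (35.3% of all genes) and DKO replicate 2 for 24 of 34 (32.1% of all genes). The Stab2KO arrays lay closest together, with a median range of 0.457 against 0.250 over all genes. The median range was 0.868 in Stab1KO and 0.963 in DKO. The replicate numbers only name the arrays and give them no order.

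A mean over 12 of the genes (the 7 Kupffer cell identity genes, the 3 C1q chains, Csf1r and Adgre1) shows the same spread. It was 7.46, 9.61 and 8.90 in the WT arrays, 8.18, 8.20 and 9.17 in Stab1KO, 7.08, 7.54 and 7.51 in Stab2KO, and 7.87, 8.99 and 8.12 in DKO. The lowest WT array lay within the Stab2KO range, and the other 2 WT arrays lay above all Stab2KO arrays. Hepatocyte markers moved with this mean among the WT arrays, since all 10 were lowest in WT replicate 1 and 9 of 10 highest in WT replicate 2. Their mean was 7.95, 9.15 and 8.63 in the WT arrays, 9.13, 7.99 and 9.36 in Stab1KO, 8.13, 8.33 and 8.56 in Stab2KO, and 9.02, 8.82 and 8.03 in DKO. All 12 markers of hepatic stellate cells were also highest in WT replicate 2 of the WT arrays, and their mean ran from 7.64 to 8.18 in WT, 5.93 to 6.29 in Stab1KO, 6.42 to 6.58 in Stab2KO and 5.96 to 6.23 in DKO. The part of hepatocyte or stellate cell RNA in the results below was not tested.

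**Figure D1:**
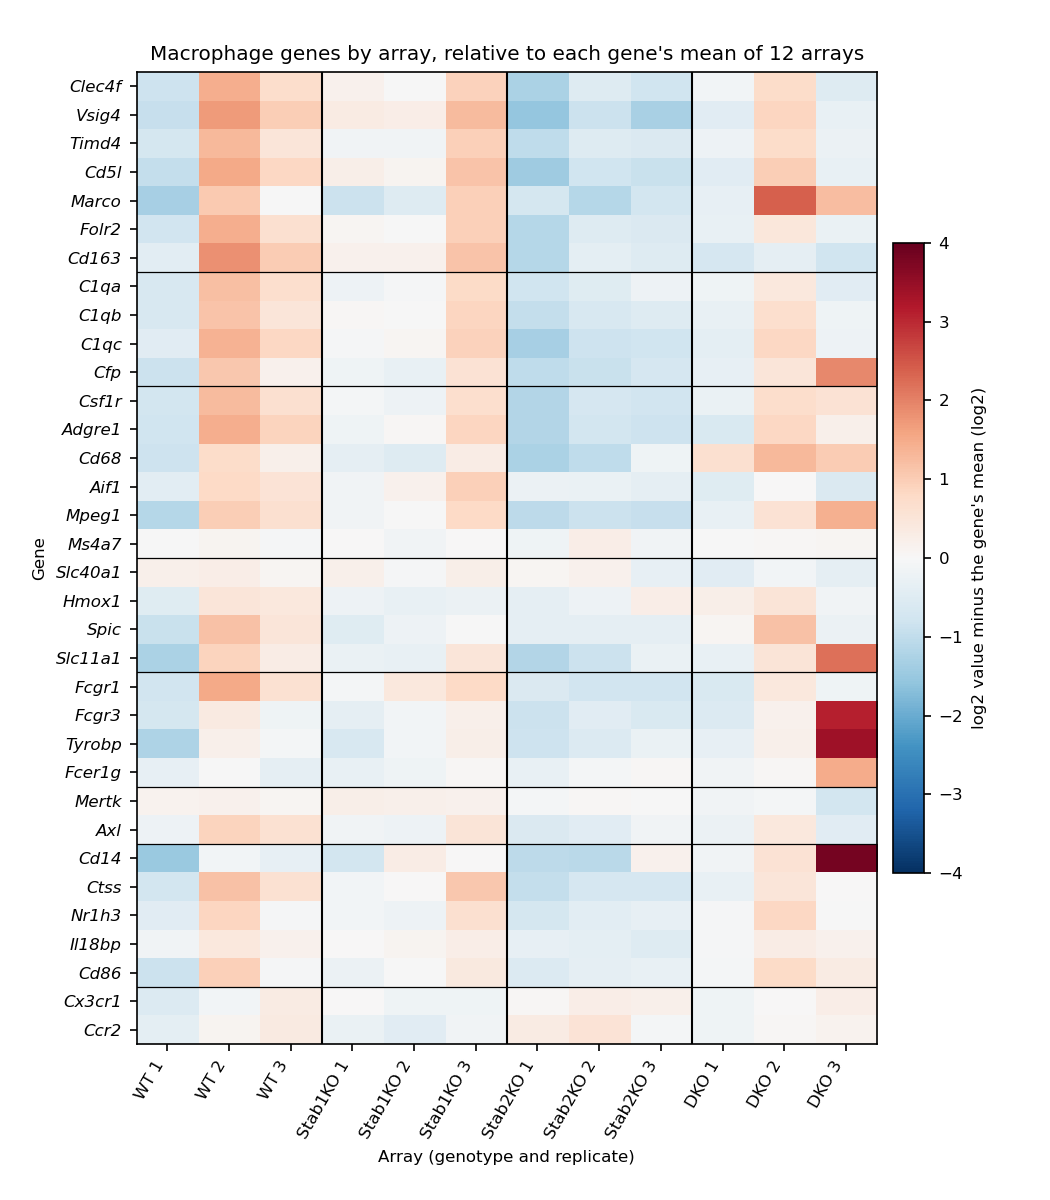
Deviation of each of the 34 genes from its own mean over the 12 arrays, in log2 units, with genes in rows ordered by role and arrays in columns by genotype and replicate number. WT replicate 2 stands out as high and WT replicate 1 and the Stab2KO arrays as low for most genes, while DKO replicate 3 is high for a smaller set that holds Cd14, Tyrobp and Fcgr3.

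The 7 Kupffer cell identity genes shared this order of the WT arrays, and each of them was highest in WT replicate 2, or, for Marco, in DKO replicate 2. Clec4f, the C-type lectin that marks rodent Kupffer cells, measured 8.44, 10.72 and 9.97 in WT, 9.45, 9.26 and 10.18 in Stab1KO, 8.004, 8.74 and 8.47 in Stab2KO, and 9.15, 10 and 8.76 in DKO. Vsig4, the complement receptor that captures C3b-coated particles, measured 7.36, 9.99 and 9.27 in WT, 8.62, 8.56 and 9.54 in Stab1KO, 6.73, 7.43 and 6.97 in Stab2KO, and 7.84, 9.14 and 7.98 in DKO. For both genes the Stab2KO arrays lay below every Stab1KO and every DKO array and overlapped only with WT replicate 1. Timd4, a phosphatidylserine receptor of embryo-derived macrophages, measured 6.22, 8.19 and 7.39 in WT, 6.78, 6.77 and 7.87 in Stab1KO, 5.88, 6.40 and 6.34 in Stab2KO, and 6.70, 7.65 and 6.69 in DKO. Cd5l, the secreted inhibitor of apoptosis of macrophages, measured 8.09, 10.56 and 9.86 in WT, 9.29, 9.14 and 10.17 in Stab1KO, 7.64, 8.26 and 8.16 in Stab2KO, and 8.59, 10.03 and 8.76 in DKO. Timd4 and Cd5l repeated the pattern of Clec4f, with the Stab2KO arrays below all arrays of Stab1KO and DKO.

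Folr2, the folate receptor of tissue macrophages, measured 7.93, 10.15 and 9.34 in WT, 8.77, 8.68 and 9.67 in Stab1KO, 7.56, 8.17 and 8.12 in Stab2KO, and 8.41, 9.16 and 8.43 in DKO. Its DKO arrays lay above the Stab2KO arrays and within the WT range. Cd163, the receptor that clears haemoglobin bound to haptoglobin, measured 6.49, 8.73 and 7.92 in WT, 7.06, 7.08 and 8.03 in Stab1KO, 5.76, 6.50 and 6.37 in Stab2KO, and 6.23, 6.54 and 6.12 in DKO. Unlike the other identity genes, Cd163 was as low in DKO as in Stab2KO, and the DKO arrays lay below every Stab1KO array. Marco, the collagen-like scavenger receptor for bacteria, measured 6.25, 8.62 and 7.54 in WT, 6.71, 7.05 and 8.52 in Stab1KO, 6.88, 6.43 and 6.84 in Stab2KO, and 7.25, 9.96 and 8.80 in DKO. Here 2 of the 3 DKO arrays lay above all arrays of the other genotypes.

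The 3 chains of C1q, which opens the classical complement pathway, had WT replicate 2 and WT replicate 1 as the highest and lowest WT arrays, like the identity genes. C1qa measured 7.52, 9.37 and 8.84 in WT, 7.96, 8.12 and 8.94 in Stab1KO, 7.36, 7.67 and 7.96 in Stab2KO, and 8.02, 8.58 and 7.73 in DKO. C1qb measured 9.15, 10.94 and 10.28 in WT, 9.84, 9.76 and 10.63 in Stab1KO, 8.84, 9.13 and 9.27 in Stab2KO, and 9.49, 10.47 and 9.60 in DKO. C1qc measured 7.62, 9.46 and 8.90 in WT, 8.04, 8.17 and 9.004 in Stab1KO, 6.75, 7.24 and 7.29 in Stab2KO, and 7.67, 8.90 and 7.88 in DKO. C1qc was the only chain whose Stab2KO arrays lay below all 3 WT arrays, and C1qa the only one whose Stab2KO and DKO arrays overlapped. Cfp, properdin, which stabilises the convertase of the alternative pathway, ranged from 7.24 to 9.33 in 11 arrays and stood at 10.18 in DKO replicate 3.

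C1qb and C1qc are encoded near each other on chromosome 4 and had the same order of the WT arrays. Cd68 and Cd163 parted from the other genes in opposite directions in DKO. The start regions of these genes are shown from RefSeq (build GRCm38.p6). Each is a window of 300 bases around the gene's start, written 5′ to 3′ on the gene's strand, with the motif GAGGAA or its reverse complement TTCCTC in capitals. This is a core of the binding site of PU.1, the macrophage transcription factor encoded by Spi1. C1qb is at chr4:136886151-136886450 and C1qc at chr4:136892865-136893164, both on the minus strand, Cd68 at chr11:69666121-69666420 on the minus strand, and Cd163 at chr6:124304401-124304700 on the plus strand.
C1qb: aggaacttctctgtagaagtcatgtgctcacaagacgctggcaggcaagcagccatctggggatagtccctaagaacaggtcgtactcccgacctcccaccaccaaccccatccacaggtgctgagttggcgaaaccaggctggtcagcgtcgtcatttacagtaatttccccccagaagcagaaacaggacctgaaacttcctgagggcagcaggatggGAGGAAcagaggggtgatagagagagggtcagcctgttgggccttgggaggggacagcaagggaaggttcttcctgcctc
C1qc: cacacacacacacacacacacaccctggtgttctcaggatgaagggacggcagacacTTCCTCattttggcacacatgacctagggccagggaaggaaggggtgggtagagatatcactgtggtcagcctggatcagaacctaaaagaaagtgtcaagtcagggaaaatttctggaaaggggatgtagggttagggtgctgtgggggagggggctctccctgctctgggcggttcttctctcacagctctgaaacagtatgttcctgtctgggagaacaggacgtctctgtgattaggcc
Cd68: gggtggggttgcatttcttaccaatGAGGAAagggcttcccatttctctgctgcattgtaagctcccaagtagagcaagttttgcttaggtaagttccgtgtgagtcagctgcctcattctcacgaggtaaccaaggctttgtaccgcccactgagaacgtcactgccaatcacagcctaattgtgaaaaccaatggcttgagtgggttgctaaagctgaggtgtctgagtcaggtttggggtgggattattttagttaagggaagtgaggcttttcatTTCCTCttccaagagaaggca
Cd163: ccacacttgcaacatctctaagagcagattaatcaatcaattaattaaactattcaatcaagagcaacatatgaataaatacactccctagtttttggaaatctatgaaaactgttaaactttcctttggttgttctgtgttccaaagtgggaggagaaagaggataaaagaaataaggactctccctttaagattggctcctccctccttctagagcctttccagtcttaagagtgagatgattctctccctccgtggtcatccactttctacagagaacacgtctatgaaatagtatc
C1qb and C1qc each held 1 match, Cd68 held 2 and Cd163 held 0. Windows were found for 26 of the 34 genes, and 15 of these genes had a match in at least 1 of their windows. Of all 32851 windows 28.3% had a match, and of all 27025 genes 31.3%. The motif was picked after results of these data were known, and a match describes the letters only.

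Csf1r and Adgre1 followed the identity genes, while Cd68 did not in DKO. Csf1r, the receptor for CSF1 and IL-34 on which macrophage survival depends, measured 8.29, 10.27 and 9.65 in WT, 8.94, 8.82 and 9.67 in Stab1KO, 7.84, 8.35 and 8.26 in Stab2KO, and 8.76, 9.72 and 9.59 in DKO. Adgre1, an adhesion receptor long used to stain macrophages, measured 6.11, 8.36 and 7.79 in WT, 6.73, 6.96 and 7.76 in Stab1KO, 5.74, 6.16 and 6.07 in Stab2KO, and 6.29, 7.74 and 7.10 in DKO. For both, Stab2KO lay below all Stab1KO and DKO arrays. Cd68, the lysosomal glycoprotein of phagocytes, measured 8.52, 10.07 and 9.53 in WT, 8.99, 8.82 and 9.63 in Stab1KO, 8.06, 8.32 and 9.15 in Stab2KO, and 9.96, 10.64 and 10.35 in DKO. The DKO arrays lay above all arrays of both single knockouts and overlapped with 1 WT array. Aif1, the actin-binding protein IBA1, measured 5.96, 7.18 and 6.91 in WT, 6.23, 6.53 and 7.32 in Stab1KO, 6.15, 6.12 and 6.01 in Stab2KO, and 5.88, 6.40 and 5.81 in DKO. Aif1 was low in Stab2KO and DKO alike. Mpeg1, a pore-forming protein of the phagosome, ranged from 7.38 to 9.94, and Ms4a7, a membrane protein of macrophages, stayed between 3.79 and 4.23, below the array median.

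In Stab1KO every macrophage gene overlapped with its WT values. No gene's Stab1KO arrays lay wholly above or wholly below the WT arrays, where 5.36% and 4.72% of all genes did so. None of the 34 genes was called by limma, and 0 had an unadjusted p under 0.05, while 0.308% of all genes were called. The median difference from WT was -0.05 over the 34 genes and 0.01 over all genes, with 22 genes below and 12 above 0. The 3 largest positive differences were in Cd14 at 0.50 ± 0.86 (SE), Tyrobp at 0.19 ± 0.79 and Fcgr3 at 0.09 ± 0.73, and the 3 largest negative ones in Spic at -0.49 ± 0.46, Axl at -0.38 ± 0.31 and Hmox1 at -0.37 ± 0.26. All 6 were smaller than the spread between pools of 1 genotype. Leaving out WT replicate 1 gave a median of -0.62, and leaving out WT replicate 2 gave 0.30.

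In Stab2KO most macrophage genes were lower on average than in WT, but none passed the test. The differences of the identity genes were -1.83 ± 0.59 (SE) for Vsig4, -1.50 ± 0.48 for Cd163, -1.49 ± 0.58 for Cd5l, -1.31 ± 0.52 for Clec4f, -1.19 ± 0.48 for Folr2, -1.06 ± 0.47 for Timd4 and -0.75 ± 0.73 for Marco. Those of the C1q chains were -1.57 ± 0.46 for C1qc, -1.04 ± 0.42 for C1qb and -0.91 ± 0.43 for C1qa, and those of Adgre1 and Csf1r were -1.43 ± 0.53 and -1.26 ± 0.45. The difference was below 0 for 31 of the 34 genes, with a median of -0.79 against 0.01 over all genes. limma called 0 of the 34 genes, where 0.296% of all genes were called. An unadjusted p under 0.05 was found for 14 of the 34, a looser threshold without a share of all genes beside it. The smallest adjusted p of the 34 was 0.259, for Il18bp, the secreted binding protein of interleukin-18, with a difference of -0.56 ± 0.14. Vsig4 had an adjusted p of 0.449, Cd163 of 0.431 and C1qc of 0.375. All Stab2KO arrays lay below all WT arrays for 3 of the 34 genes, C1qc, Il18bp and Mertk, and 7.63% of all genes were so placed. The 3 positive differences, in Cx3cr1 (0.28 ± 0.19), Ccr2 (0.23 ± 0.20) and Fcer1g (0.12 ± 0.34), were small beside their errors. The median depended on the WT pools, being -1.33 with WT replicate 1 left out and -0.47 with WT replicate 2 left out.

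Between the single knockouts the Stab2KO arrays were the lower ones, and the arrays separated more often than from WT. All 3 Stab2KO arrays lay below all 3 Stab1KO arrays for 21 of the 34 genes, where 6.04% of all genes were so placed, and above them for Ccr2 and Cx3cr1 (6.61% of all genes). The 34 genes share their arrays and are not independent of each other. limma called 0 of the 34 between these genotypes and 0.108% of all genes. At the looser threshold of an unadjusted p under 0.05 there were 12 of the 34, and the share of all genes is not given. The median difference was -0.66 over the 34 genes and 0.00 over all genes, and the widest was Vsig4 at -1.86 ± 0.59 (SE, adjusted p = 0.513, limma). It was -0.41 without Stab1KO replicate 3, the array with the highest core mean of its group.

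In DKO the mean differences from WT fell on both sides of 0, within the spread of the WT arrays for the core mean. The mean was below WT for 6 of the 7 identity genes (median difference -0.41) and 3 of the 4 complement genes (-0.37). It was also below for 11 of the 12 core genes (-0.39), which include the identity genes and C1q chains. It was above WT for 3 of the 4 Fc receptor genes (0.89), for which DKO replicate 3 was high. All 3 DKO core means (7.87, 8.99 and 8.12) lay within the WT range of 7.46 to 9.61. With single arrays left out, the sign changed for Clec4f, Vsig4, Timd4, Cd5l and Folr2 and held for Cd163 and Marco. Over all 34 genes, 19 were below and 15 above 0, with a median of -0.04 against -0.02 over all genes. limma called 0 of the 34 genes (1.8% of all genes were called). For 5 of the 34 the unadjusted p was under 0.05, and the share of all genes at that threshold is not given. The largest positive differences were in Cd14 at 2.06 ± 0.86 (SE, adjusted p = 0.261), Tyrobp at 1.46 ± 0.79 (adjusted p = 0.387) and Marco at 1.20 ± 0.73 (adjusted p = 0.449). The largest negative ones were in Cd163 at -1.42 ± 0.48 (adjusted p = 0.170), Aif1 at -0.66 ± 0.33 (adjusted p = 0.349) and Fcgr1 at -0.58 ± 0.48 (adjusted p = 0.600). Cd163 became the only called gene of the 34 when WT replicate 1 was left out, at -2.03 with an adjusted p of 0.032 in limma, and was -0.91 (adjusted p = 0.440) with WT replicate 2 left out. The DKO arrays lay below all WT arrays for 2 of the 34 genes, Mertk and Slc40a1 (15% of all genes), and above them for 0 of the 34 (8.97% of all genes). Neither count exceeded the share of all genes. The comparisons with WT share the 3 WT arrays, so their values are given side by side only: Clec4f differed from WT by -0.08, -1.31 and -0.41 in Stab1KO, Stab2KO and DKO, and Csf1r by -0.26, -1.26 and -0.05.

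**Figure D2:**
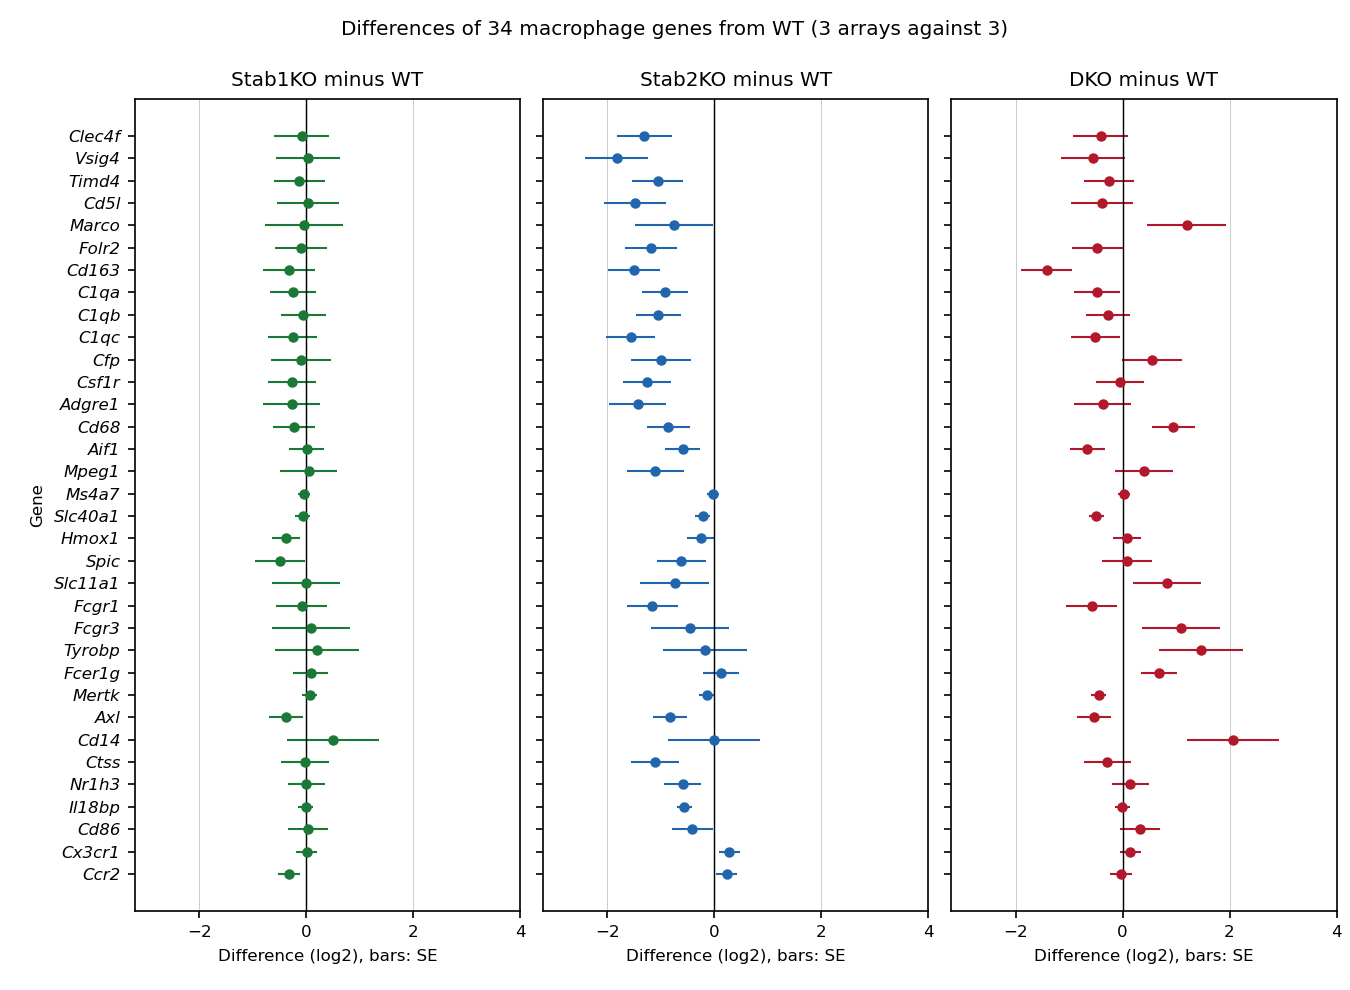
Difference of each of the 34 genes from WT on the log2 scale in Stab1KO, Stab2KO and DKO (points, with bars of 1 standard error from the limma fit). Most Stab2KO points lie left of 0, from -1.83 to 0.28, and the DKO points of Cd14, Tyrobp and Marco lie farthest right, with wide bars.

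DKO exceeded Stab2KO in most macrophage genes, and Cd68 was the only one of the 34 that passed the test in any of the 7 contrasts. Cd68 rose by 1.81 ± 0.40 (SE) on the log2 scale from Stab2KO to DKO, with an adjusted p of 0.039 in limma, and all 3 DKO arrays lay above all 3 Stab2KO arrays. The call was lost in 7 of the 12 fits that left out 1 array, those without WT replicate 3, Stab1KO replicate 1, Stab2KO replicates 1 or 2, or any DKO replicate, with adjusted p from 0.052 to 0.134. It was also lost with the trend and robust options of eBayes (adjusted p = 0.060) and in a fit on the DKO and Stab2KO arrays alone (adjusted p = 0.101). In this contrast 3.42% of all genes were called, and 1.3% were called higher. The count of 1 of the 34 genes did not exceed the share called in either direction, so it is not read as a result about the list. The difference was above 0 for 29 of the 34 genes, with a median of 0.76 against -0.03 over all genes. An unadjusted p under 0.05 was found for 9, and the share of all genes at that threshold is not given. All DKO arrays lay above all Stab2KO arrays for 18 genes (7.37% of all genes), among them Clec4f, Vsig4, Timd4, Cd5l, Folr2, Marco, C1qb and C1qc, and below them for Mertk (13.8% of all genes). Cd163 did not share this, with a difference of 0.09 ± 0.48. The difference in Il18bp was 0.55 ± 0.14 with an adjusted p of 0.062. Markers of other cells moved in DKO too. Of 5 cholangiocyte markers, 4 were called higher against WT (Krt19, Epcam, Sox9 and Muc1) and 3 against each single knockout, and their mean was 7.42 to 7.96 in the DKO arrays against 6.03 to 6.79 in the other 9. Of 6 monocyte markers, Fn1 was called higher in DKO than in Stab2KO. Their part in the macrophage values was not tested.

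Against Stab1KO, the DKO arrays were higher without overlap for 2 of the 34 genes, Cd68 and Hmox1 (6.88% of all genes). They were lower for 3, Cd163, Mertk and Slc40a1 (12.8% of all genes). Neither count exceeded the share of all genes, so the lack of overlap is not particular to the list. The differences were 1.17 ± 0.40 (SE) for Cd68 and -1.10 ± 0.48 for Cd163, and their adjusted p in limma was 0.180 and 0.291. limma called 0 of the 34 genes, 4 had an unadjusted p under 0.05, and 0.945% of all genes were called. The departure from additivity, which asks whether the DKO difference equals the sum of those of the single knockouts, was called for 0 of the 34 genes and 0.05% of all genes, and 3 of the 34 had an unadjusted p under 0.05. It was above 0 for 30 of the 34, with a median of 0.84 against -0.04 over all genes, and leaving out WT replicate 1 or 2 gave 1.40 or 0.46.

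Since most of the genes moved together from pool to pool, each was also read against the mean of the 12 core genes in the same array, a view added after the data were seen. A core gene was left out of its own mean, and only changes of the offset between arrays are read, since levels of different genes on an array are not comparable. On that scale Cd163 lay at -1.06, -0.96 and -1.07 in the WT arrays, -1.22, -1.22 and -1.24 in Stab1KO, -1.45, -1.14 and -1.24 in Stab2KO, and -1.78, -2.68 and -2.18 in DKO. The arrays of each single knockout thus also lay below all WT arrays, with means of -1.23 in Stab1KO and -1.27 in Stab2KO against -1.03 in WT. The 9 WT and single knockout arrays lay between -1.45 and -0.96, and the 3 DKO arrays, with a mean of -2.22, lay below all of them. Cd68 lay at 1.06, 0.45 and 0.63 in WT, 0.80, 0.62 and 0.46 in Stab1KO, 0.98, 0.78 and 1.64 in Stab2KO, and 2.10, 1.65 and 2.23 in DKO. The DKO arrays were the 3 highest, with Stab2KO replicate 3 level with the lowest of them. Marco lay at -1.32, -1.08 and -1.48 in WT, -1.61, -1.25 and -0.70 in Stab1KO, -0.22, -1.22 and -0.73 in Stab2KO, and -0.68, 1.05 and 0.74 in DKO. DKO replicates 2 and 3 lay above the other 10 arrays, and DKO replicate 1 among them. These genes were not alone in separating on this scale. All DKO arrays lay above all WT arrays for 5 of the 34 genes and below them for 1. The Stab2KO arrays lay above all WT arrays for 12 and below for 3. Against Stab1KO they lay above for 18 and below for 3. The shares of all genes on this scale are not given, so these counts are not read as results about the list.

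With the core mean as a covariate in the limma model, the tested gene left out of it, 2 of the 34 genes were called between DKO and WT, where 1.37% of all genes were called. Cd163 differed by -1.21 ± 0.18 (SE, adjusted p = 0.014) and Cd68 by 1.18 ± 0.20 (adjusted p = 0.026), while Marco at 1.80 ± 0.43 missed the threshold (adjusted p = 0.089). Against Stab1KO the same genes were called, Cd163 at -0.999 ± 0.18 (adjusted p = 0.040) and Cd68 at 1.31 ± 0.20 (adjusted p = 0.028), beside 0.804% of all genes. Against Stab2KO 0 of 34 were called, with Cd163 at -0.84 ± 0.21 (adjusted p = 0.110) and Cd68 at 1.13 ± 0.23 (adjusted p = 0.060), beside 0.816% of all genes. These calls rest on few arrays. Between DKO and WT, Cd163 stayed between -1.40 and -0.94 when each array was left out in turn and was called in 9 of the 12 fits, not in those without a WT array. Cd68 stayed between 1.09 and 1.29 and was called in 6 of 12, not in those without a WT array, Stab1KO replicate 3, DKO replicate 1 or DKO replicate 2. Without DKO replicate 3, the array with the high neutrophil markers, both were called. Between DKO and Stab1KO, Cd163 was called in 1 of the 12 fits and Cd68 in 4.

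**Figure D3:**
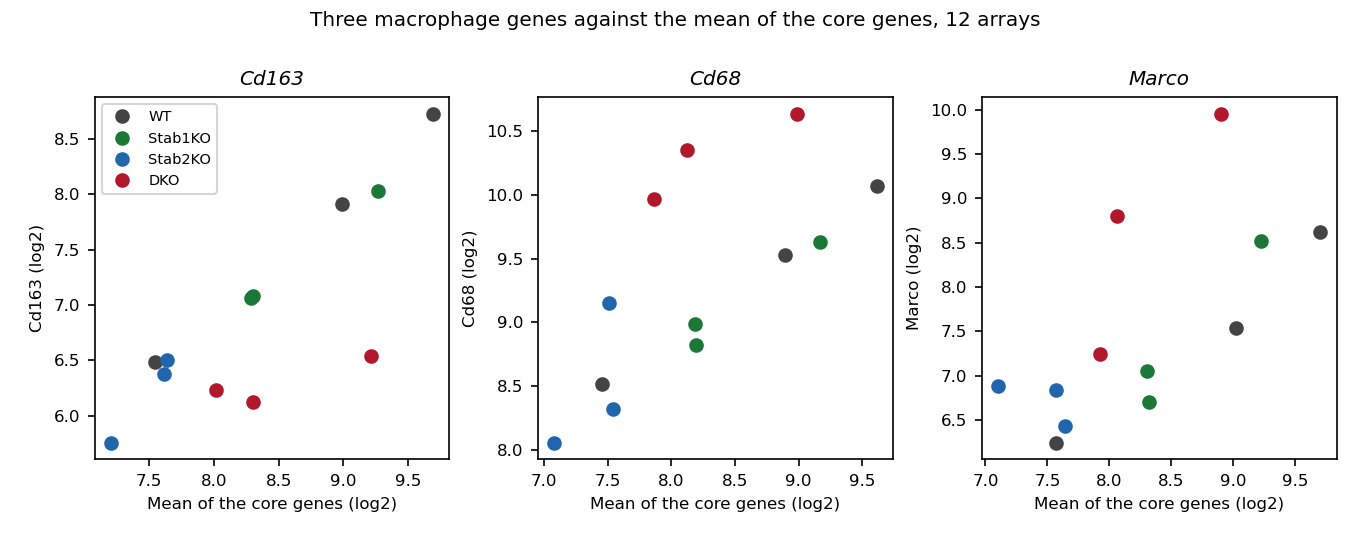
Signal of Cd163, Cd68 and Marco in each of the 12 arrays (vertical axis, log2) against the mean of the 12 core macrophage genes in that array (horizontal axis, log2; for Cd163 and Marco without the gene itself), coloured by genotype. The DKO points lie below the run of the other arrays for Cd163 and above it for Cd68, and 2 of 3 lie above it for Marco.

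The genes of haem and iron handling, a main task of Kupffer cells, differed in how far they followed the core genes. Hmox1, which opens the haem ring, measured 10.04, 11.03 and 10.95 in WT, 10.35, 10.25 and 10.30 in Stab1KO, 10.18, 10.32 and 10.79 in Stab2KO, and 10.79, 11.07 and 10.41 in DKO. Spic, the transcription factor of iron-recycling macrophages, measured 5.05, 7.09 and 6.41 in WT, 5.45, 5.73 and 5.91 in Stab1KO, 5.56, 5.56 and 5.58 in Stab2KO, and 6.00, 7.11 and 5.70 in DKO. The 3 Stab2KO arrays agreed to within 0.02 for Spic, while WT spanned 2.04. Slc40a1, ferroportin, which exports iron from the cell, lay between 10.89 and 11.61 in all arrays and spanned 0.19 in WT. Its difference between DKO and WT was -0.49 ± 0.14 (SE, adjusted p = 0.113, limma). Slc11a1, the metal transporter of the phagosome, ranged from 7.12 to 9.29 in 11 arrays and stood at 10.58 in DKO replicate 3.

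In 3 of the 4 genes of Fc receptors and their signalling adaptors DKO replicate 3 stood apart. Tyrobp, the adaptor DAP12, measured 6.23, 7.69 and 7.39 in WT, 6.83, 7.35 and 7.72 in Stab1KO, 6.64, 6.93 and 7.22 in Stab2KO, and 7.14, 7.69 and 10.86 in DKO. Fcgr3, a low-affinity IgG receptor, measured 5.63, 6.70 and 6.16 in WT, 5.98, 6.23 and 6.56 in Stab1KO, 5.499, 5.88 and 5.73 in Stab2KO, and 5.79, 6.50 and 9.46 in DKO. Fcer1g, the common gamma chain of Fc receptors, measured 10.88, 11.19 and 10.85 in WT, 10.90, 11.02 and 11.23 in Stab1KO, 10.91, 11.13 and 11.25 in Stab2KO, and 11.06, 11.24 and 12.67 in DKO. In all 3 genes DKO replicates 1 and 2 lay among the other genotypes and replicate 3 alone lay above. Fcgr1, the high-affinity IgG receptor, measured 5.63, 7.93 and 7.01 in WT, 6.33, 6.81 and 7.19 in Stab1KO, 5.83, 5.65 and 5.62 in Stab2KO, and 5.78, 6.82 and 6.23 in DKO. Fcgr1 did not share the excess of replicate 3 and was highest of all arrays in WT replicate 2, like the identity genes.

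Cd14, the co-receptor for lipopolysaccharide, measured 7.14, 8.54 and 8.30 in WT, 7.91, 8.92 and 8.66 in Stab1KO, 7.59, 7.56 and 8.81 in Stab2KO, and 8.48, 9.22 and 12.47 in DKO. Its DKO mean was carried by replicate 3, without which the difference from WT was 0.86 (adjusted p = 0.5002, limma). Without that array Tyrobp differed from WT by 0.31 and Fcgr3 by -0.02, while Marco differed by 1.13 and Cd163 by -1.33. The Marco difference rested on DKO replicate 2 instead, being 0.55 with that array left out and 1.91 with DKO replicate 1 left out. In all, 7 of the 34 genes (Cd14, Tyrobp, Fcgr3, Slc11a1, Cfp, Fcer1g and Mpeg1) had their highest value of the 12 arrays in DKO replicate 3, more than 1 log2 unit above the mean of the other 2 DKO arrays. How many of all genes did so is not given, so this count is not read as a result about the list. All 11 neutrophil markers were highest in DKO replicate 3 too, and the mean of 6 monocyte markers was 8.56 there against 6.00 to 6.69 elsewhere. Their part in the DKO values of these 7 genes was not tested. The core mean of that array, 8.12, lay within the range of the other DKO arrays.

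**Figure D4:**
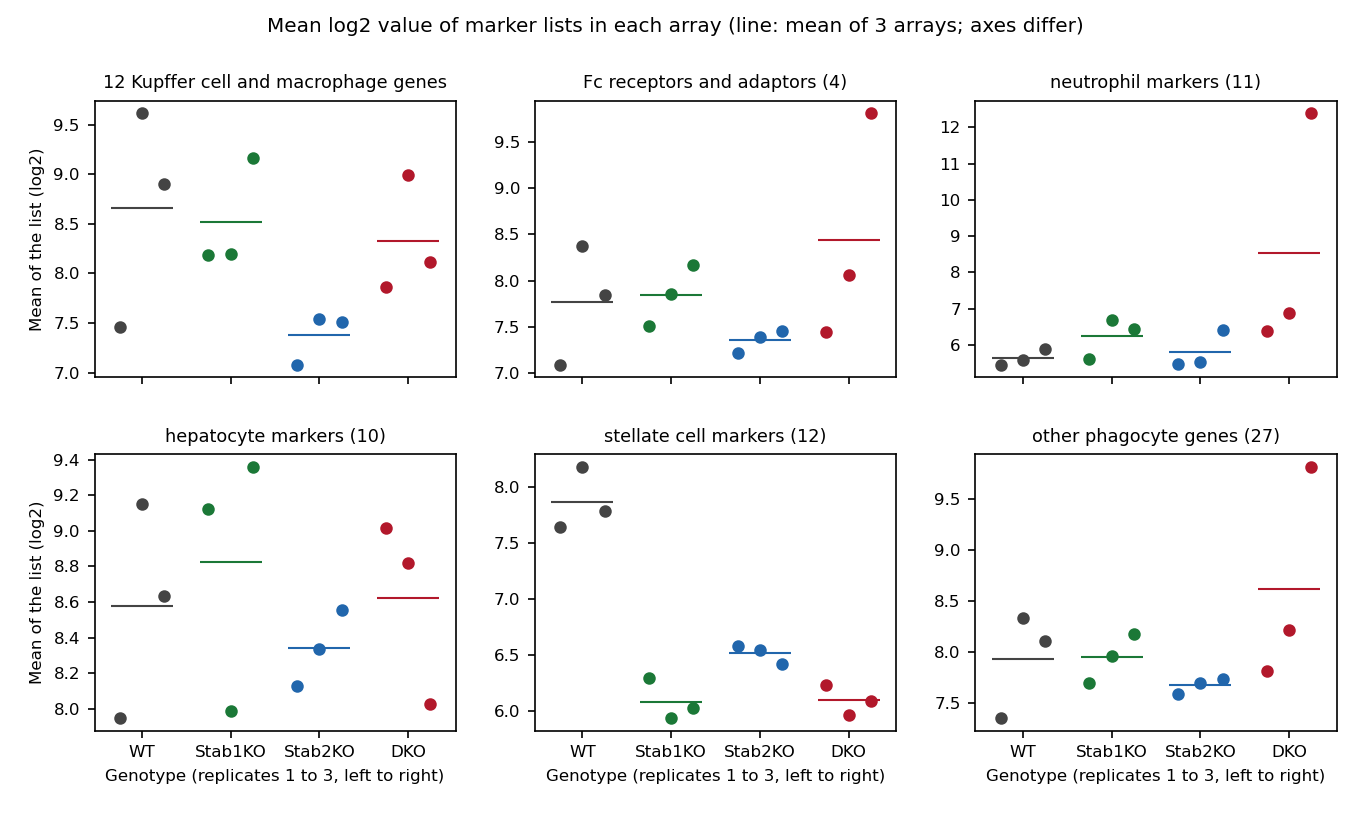
Mean log2 signal of 6 gene lists in each of the 12 arrays (vertical axes, which differ between panels), grouped by genotype, with 1 point per array and a line at the mean of the 3 arrays. The lists are the macrophage core, the Fc receptors and adaptors, and markers of neutrophils, hepatocytes, stellate cells and other phagocytes. The macrophage core mean spreads widely within WT, from 7.46 to 9.61, and the neutrophil mean is high in DKO replicate 3 alone, at 12.39.

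Of the receptors for apoptotic cells, Mertk varied little and Axl followed the macrophage order. Mertk ranged from 10.96 to 11.92 over the 12 arrays and spanned 0.11 in WT. Its DKO arrays lay below all others, narrowly, since DKO replicate 2 was at 11.59 and Stab2KO replicate 1 at 11.60. Of all genes, 15%, 12.8% and 13.8% lay wholly lower in DKO than in WT, Stab1KO and Stab2KO. The difference from WT was -0.45 ± 0.14 (SE, adjusted p = 0.142, limma), and -0.24 without DKO replicate 3. Axl measured 8.29, 9.41 and 9.11 in WT, 8.36, 8.30 and 9.01 in Stab1KO, 7.91, 8.04 and 8.37 in Stab2KO, and 8.25, 8.91 and 8.05 in DKO. Its WT arrays overlapped with every other genotype. Ctss, a cysteine protease of the endolysosome, ranged from 8.30 to 10.41, and Nr1h3, the oxysterol receptor LXR alpha that supports Kupffer cell identity, from 6.91 to 8.48. Both were lower in all Stab2KO arrays than in all Stab1KO arrays. Il18bp ranged from 8.46 to 9.40, and Cd86, a co-stimulatory ligand for T cells, from 5.03 to 6.85.

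The chemokine receptors of monocytes lay near the array median and followed the other genes only in part. Cx3cr1, the receptor for fractalkine, measured 5.36, 5.79 and 6.24 in WT, 5.92, 5.74 and 5.75 in Stab1KO, 5.96, 6.17 and 6.11 in Stab2KO, and 5.74, 5.91 and 6.18 in DKO. Ccr2, the receptor for CCL2, measured 4.42, 4.93 and 5.17 in WT, 4.53, 4.35 and 4.67 in Stab1KO, 5.14, 5.34 and 4.72 in Stab2KO, and 4.64, 4.85 and 4.94 in DKO. Among the WT arrays both were lowest in WT replicate 1, like 30 of the 34 genes, but highest in WT replicate 3. Their Stab2KO arrays lay above the Stab1KO arrays. With Fcer1g they were the only genes of the 34 with a higher mean in Stab2KO than in WT.

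Genes linked to the list by pathway were not called against WT in any of the 3 knockouts. This held for 9 ligands of the receptors, 11 macrophage transcription factors, 7 LXR target genes, 11 further genes of haem and iron and 27 other phagocyte genes, where limma called 0 of each. Of all genes, 0.308%, 0.296% and 1.8% were called in Stab1KO, Stab2KO and DKO, so 0 calls in lists this short say little. Among the phagocyte genes the widest Stab2KO difference was in Siglec1, the sialic acid receptor sialoadhesin, at -1.72 ± 0.61 (SE), and it was followed by Fcgr4 at -1.13 ± 0.76. Siglec1 measured 5.69, 8.26 and 7.50 in WT and 5.505, 5.66 and 5.14 in Stab2KO. Its WT arrays had the order of the core mean. Unlike the core mean, its Stab2KO arrays all lay below the WT arrays, narrowly, as did those of 7.63% of all genes. In DKO the widest were Itgam, the integrin CD11b, at 2.38 ± 1.03 and Plek at 1.67 ± 0.63. Itgam stood at 12.17 in DKO replicate 3 and between 5.92 and 7.38 in the other 11 arrays.

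Of the ligands, Il18 differed from WT by -0.50 ± 0.13 (SE) in Stab2KO and Ccl2 by 0.59 ± 0.36 in DKO, while Csf1, added here as the ligand of Csf1r, had means of 11.04 in WT, 11.01 in Stab1KO, 11.01 in Stab2KO and 10.65 in DKO. Of the transcription factors, Cebpb differed by 1.25 ± 0.50 and Spi1 by 1.22 ± 0.70 in DKO, and both were highest in DKO replicate 3. Lrp1, the receptor for haem bound to haemopexin, differed by -1.30 ± 0.32 in Stab2KO (adjusted p = 0.234, limma). Hp, haptoglobin, differed by 1.90 ± 0.94 in DKO, with 12.04 in replicate 3, and Tfrc, the transferrin receptor, by 0.95 ± 0.21 (adjusted p = 0.053). The LXR targets gave at most 0.83 ± 0.46, for Scd1 in Stab2KO. Outside the comparisons with WT, and named after their values were seen, Tfrc and Il18 were called higher in DKO than in Stab2KO, by 1.19 ± 0.21 (adjusted p = 0.022, limma) and 0.69 ± 0.13 (adjusted p = 0.027), and Tfrc also higher than in Stab1KO, by 1.21 (adjusted p = 0.030).

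The differences were also set against the spread of the pools. The difference from WT was smaller than the wider of the 2 within-group ranges for 34 of the 34 genes in Stab1KO, 33 in Stab2KO and 33 in DKO, and for 95.0%, 91.0% and 87.7% of all genes. The same held for 31 genes between DKO and Stab1KO (90.2% of all genes) and 30 between DKO and Stab2KO (88.3%). Between the single knockouts it held for 19 of the 34 genes and 93.2% of all genes. The ranges within WT were widest for Vsig4 (2.63), Cd5l (2.47) and Marco (2.38) and narrowest for Mertk (0.11), Ms4a7 (0.15), Slc40a1 (0.19) and Fcer1g (0.34). For any single gene, 3 arrays against 3 allow an exact permutation p of 0.1 at the lowest. A permutation test of that kind cannot reach the threshold, and the calls rest on the limma model.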

How the data were processed

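Expression was measured on 12 Affymetrix arrays of biotin-labelled RNA from CD146-selected LSECs. The deposited values are log2 expression per gene identifier, normalized by the authors with RMA, per the submitters' processing notes. The labels name neither the probe set definition nor the genome build. Of 24973 table rows, 24015 had 1 symbol in the platform annotation and 958 had none. For symbols with several rows the one with the highest mean was kept, which left 24011 genes.

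One limma model (limma 3.58.1, R 4.3.3) with 4 group means gave 7 contrasts, with Benjamini-Hochberg adjustment over all genes and a threshold of 0.05. It was tested on simulated data. The genes and lists were chosen with earlier results of these data known, so no test was made over a list. All 34 measured genes are named. Values per array are given for the 7 identity genes, the C1q chains, Csf1r, Adgre1, any gene called, and the 3 largest differences each way against WT. The others are given by range. Of each pathway list, up to 4 genes called against WT are named per knockout or, where none was called, up to 2 with the widest differences. The alternatives were a block for replicate number, a filter at the 40th percentile of means, other eBayes options, array weights, further normalization, all rows, a fit on the 2 groups compared alone, and each array left out. The core mean as a covariate was added after the data were seen. Same-numbered arrays had deviations correlated at -0.06 to 0.29 (median 0.055) and others at -0.27 to 0.21 (median -0.038). The ranges overlapped, though the median was higher for same-numbered arrays. The numbers were not taken as pairs in the main model, and the block for replicate number was fitted as an alternative. Promoter windows were matched by symbol.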

Additional observations from a re-analysis of the deposited data

Results flagged for a closer look

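In 3 of the 34 genes the effect of losing one stabilin changed direction with the other stabilin missing, in every array. How many of all genes did so is not given, so the count is not read as a result about these genes. For Cd68 the loss of Stab2 went with -0.86 in the presence of Stab1 and with 1.17 in its absence, a departure from additivity of 2.04 (adjusted p = 0.168, limma). For Spic the loss of Stab1 went with -0.49 with Stab2 present and 0.70 without it, and the loss of Stab2 with -0.62 and 0.57. The departure was 1.19 (adjusted p = 0.510, limma). The Spic value of WT replicate 1, 5.05, lay below all arrays of both single knockouts. That of DKO replicate 3, 5.703, barely exceeded the Stab1KO mean of 5.695. For Mertk the loss of Stab1 went with 0.07 with Stab2 present and -0.30 without it, a departure of -0.37 (adjusted p = 0.497). None of the 3 departures passed the test, and each array was set against the mean of its control group, which the arrays share.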

How the results depend on the processing

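The counts of genes called against WT were 0 under each alternative listed under the processing except DKO without WT replicate 1, where Cd163 made it 1; with the core mean as a covariate it was 2 against WT and 2 against Stab1KO. Between DKO and Stab2KO the count of 1 became 2 with the 40th percentile filter (Cd68 and Il18bp), 0 with the trend and robust options, 0 with only the arrays compared and 0 with the covariate, and ran from 0 to 2 with arrays left out. In the covariate fits with arrays left out it ran from 0 to 2 against WT, 0 to 2 against Stab1KO and 0 to 1 against Stab2KO.

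Median differences with arrays left out ran from -0.62 to 0.30 for Stab1KO, -1.33 to -0.47 for Stab2KO and -0.46 to 0.14 for DKO against WT, -0.11 to 0.17 for DKO against Stab1KO, 0.51 to 0.94 for DKO against Stab2KO, -0.87 to -0.41 for Stab2KO against Stab1KO and 0.46 to 1.40 for the departure from additivity. With the covariate, a mean of 12 of the same genes that brings their median near 0 by construction, the medians were 0.0380 for Stab2KO against WT, 0.00197 for DKO against Stab2KO, 0.0210 for Stab2KO against Stab1KO and 0.0167 for the departure.

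With the replicate block 1 gene, Cd68, was called, as without it, and no other call changed; 7 of the 12 arrays correlated best with a same-numbered array. Of 4719 values of single genes under alternatives, 7 gained and 10 lost the call, and 235 changed sign while called neither before nor after. The cause of these changes was not tested. Signal over background is unknown, since no detection calls were used here.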
